A study of Mus musculus with 6 samples.

Results

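The genes of cholesterol and fatty acid synthesis were followed in CD4 T cells with raised or removed Blimp-1. The set holds 29 genes named by their role in these pathways, and all 29 were found among the 28914 genes of the table. The set was chosen with earlier results of these data known. RNA was sequenced from total CD4 T cells sorted from spleens of NOD mice, which are prone to autoimmune diabetes, at 12 weeks of age, without further stimulation of the T cell receptor. There were 3 groups with 2 libraries each. The BTg mice carry a transgene for Blimp-1 overexpression, the CKO mice are labelled as a Blimp1 knockout, and the WT mice are the controls. The sources used here do not give the promoter of the transgene, the cells in which the knockout acts or the exons removed. Separate mice behind the libraries of 1 group are not stated, so every p-value below reflects the scatter of these libraries, which may be technical.

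Cells build cholesterol and fatty acids from acetyl-CoA. The mevalonate pathway, which includes Hmgcs1 and Mvd, leads to isoprenoid units, which are joined to squalene, closed to lanosterol and trimmed to cholesterol; Acaca and Fasn build palmitate, which elongases and desaturases then modify. When sterols are scarce, the SREBP proteins encoded by Srebf1 and Srebf2 leave the endoplasmic reticulum, are cleaved and switch these genes on, while Insig proteins hold them back when sterols are plentiful. Activated T cells are known to raise this programme through SREBP before they divide. Blimp-1, encoded by Prdm1, is a transcriptional repressor of lymphocytes.

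Start regions of 3 genes are printed because the genes come up repeatedly below and because SREBP is known to bind sterol response elements in such regions together with factors at CCAAT boxes. They were taken from RefSeq (GRCm38.p6) and run 5′ to 3′ along the gene's strand, ending before the first annotated base of the gene. Hmgcs1, HMG-CoA synthase, is at chr13:119690101-119690350 (plus strand), Srebf2, which encodes SREBP-2, at chr15:82147019-82147180 (plus strand), and Mvd, the mevalonate pathway decarboxylase, at chr8:122443423-122443672 (minus strand). Capitals mark the sterol response element core TCACNCCA and the CCAAT box, each on either strand.
Hmgcs1: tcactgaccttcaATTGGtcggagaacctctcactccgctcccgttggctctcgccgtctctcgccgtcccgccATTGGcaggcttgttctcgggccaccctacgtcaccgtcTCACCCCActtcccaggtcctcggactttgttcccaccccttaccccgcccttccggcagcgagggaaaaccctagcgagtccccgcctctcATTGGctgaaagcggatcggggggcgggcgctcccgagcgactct
Srebf2: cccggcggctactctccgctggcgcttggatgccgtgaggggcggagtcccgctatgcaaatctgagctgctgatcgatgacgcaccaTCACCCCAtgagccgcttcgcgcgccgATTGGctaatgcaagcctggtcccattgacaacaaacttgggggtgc
Mvd: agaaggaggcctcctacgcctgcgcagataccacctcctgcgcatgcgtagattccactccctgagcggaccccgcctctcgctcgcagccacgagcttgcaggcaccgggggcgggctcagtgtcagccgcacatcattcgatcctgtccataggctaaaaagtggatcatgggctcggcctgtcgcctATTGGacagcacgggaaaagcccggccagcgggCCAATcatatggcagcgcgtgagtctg
The genes themselves lie, on GRCm38 by GENCODE M21, at chr13:119690379-119708260 (Hmgcs1, ENSMUSG00000093930), chr15:82147181-82205379 (Srebf2, ENSMUSG00000022463) and chr8:122433601-122443422 (Mvd, ENSMUSG00000006517). Scd2 (ENSMUSG00000025203), a desaturase that recurs below, lies at chr19:44293674-44306864, and Sqle (ENSMUSG00000022351) at chr15:59315077-59331192. In Hmgcs1 the core began 137 bases before the RefSeq start, and in Srebf2 it began 162 bases before it. The Mvd window held CCAAT boxes, at 60 and 27 bases before the start, and no match to the core's letters.

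Motifs were counted over windows of 250 bases before to 50 bases after the start. RefSeq promoters were matched for 22 of the 29 genes, which gave 27 windows, and Fdps, Fdft1, Sqle, Stard4, Scd1, Scd2 and Fads1 were not matched. The core TCACNCCA was found in 3 of 27 windows (11.1%), those of Hmgcs1, Msmo1 and Srebf2, and in 4.36% of all 32851 RefSeq promoters. The CCAAT box was in 19 of 27 windows (70.4%) and in 37.4% of all promoters. The GC box GGGCGG was in 20 of 27 (74.1%) and in 35.7% of all, and the E-box CACGTG was in 4 of 27 (14.8%), those of Insig1, Dhcr7, Hsd17b7 and Sc5d, and in 7.15% of all. The letters AGNGAAAG, used here as a core of the Blimp-1 motif, were in 2 of 27 windows (7.41%), those of Acss2 and Fads2, and in 8.63% of all. Both strands were searched, the motifs do not contain each other, and these matches are descriptions of sequence only.

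The libraries held 15254255 and 14958458 gene reads in BTg, 17799091 and 17731878 in CKO, and 17782999 and 15259455 in WT, recovered from the deposited values. Prdm1 checked the labels. It had 19.6 and 30.1 FPKM in BTg, 0.849 and 0.669 FPKM in CKO, and 0.458 and 0.628 FPKM in WT. Relative to WT it rose in BTg by 4.04 in units of log2(FPKM + 1), with SE 0.26 (limma adjusted p = 0.0221), and its CKO minus WT difference was 0.19 (SE 0.26; limma adjusted p = 1). Without the exons removed being known, whole-gene reads do not check the deletion, and directions drawn from the libraries labelled CKO rest on that label. Cd4 had 99.4 and 103 FPKM in BTg, 53.8 and 93.7 FPKM in CKO, and 93.7 and 81.7 FPKM in WT, and CD8 markers took at most 0.00121% of the reads of any library. CKO replicate 1 was far from the rest: principal component 1, with 56.5% of the variance, put it at 69.9 and the others between -35.1 and -1.2. Neutrophil markers took 1.31% of its reads and 0.0078 to 0.0389% of the reads elsewhere.

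None of the 29 genes passed limma's test, with Benjamini-Hochberg adjusted p under 0.05 over 10798 genes, in any of the 3 comparisons. BTg against WT called 2 genes in all (0.0185%), with 0.769% higher and 0.852% lower at unadjusted p under 0.05, and BTg against CKO also called 2 (0.0185%). In both they were Prdm1 and Igfbp4, calls that were lost for BTg against WT when any 1 library was left out and, in both comparisons, with quantile normalization or a filter at 0.2 FPKM, and Igfbp4, which is not a gene of these pathways, is named after its values were seen. CKO against WT called 0 genes (0%), with 336 higher (3.11%) and 118 lower (1.09%) at unadjusted p under 0.05. limma voom, run on the recovered reads, tested all 29 genes among 15927 and also called none of them, beside 4 genes in all (0.0251%) for BTg against WT, 7 (0.044%) for BTg against CKO and 0 (0%) for CKO against WT. The filter of at least 1 FPKM in at least 2 libraries left 26 of the 29 genes in the test, and Fdps, Nsdhl and Elovl6, each under 1 FPKM in every library, are described by their values. The standard error of a group difference had a median of 0.21 and a range of 0.18 to 0.41 over the 26 genes on the log2(FPKM + 1) scale. In bulk RNA, fewer cells that use a gene and less RNA per cell cannot be told apart.

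The sterol genes had higher means in BTg, by an excess over all genes that depended on single libraries. All 16 genes from Acat2 to Dhcr7 had a higher mean in BTg than in WT. Their median log2 difference was 0.18, against 0.02 over all genes tested. Without WT replicate 2 it was 0.16 against 0.14 over all genes, and the 9 squalene to cholesterol genes, at 0.05, were then below all genes. Without BTg replicate 1 it was 0.15 against 0.08, and without WT replicate 1 it was 0.25 against -0.05. In 11 of the 16 both BTg libraries exceeded both WT libraries, and in 0 both were lower. Over all 29 genes these counts were 14 and 0. Over the 26 of them tested they were 12 and 0, beside 14.7% and 10.4% of all genes tested. At unadjusted p under 0.05 there was 1 higher gene of the 29, Mvd, and 0 lower. The 14 were Acat2, Hmgcs1, Mvk, Mvd, Idi1, Fdps, Sqle, Lss, Cyp51, Nsdhl, Dhcr7, Srebf1, Srebf2 and Acly. The differences were small, at most 1.72-fold in FPKM among the 29 genes, which is Mvd. The count of 16 moved as well: it was 15 without WT replicate 1, where Pmvk turned, 14 without WT replicate 2, where Msmo1 and Sc5d turned, and 15 without BTg replicate 1, where Msmo1 turned.

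**Figure D1:**
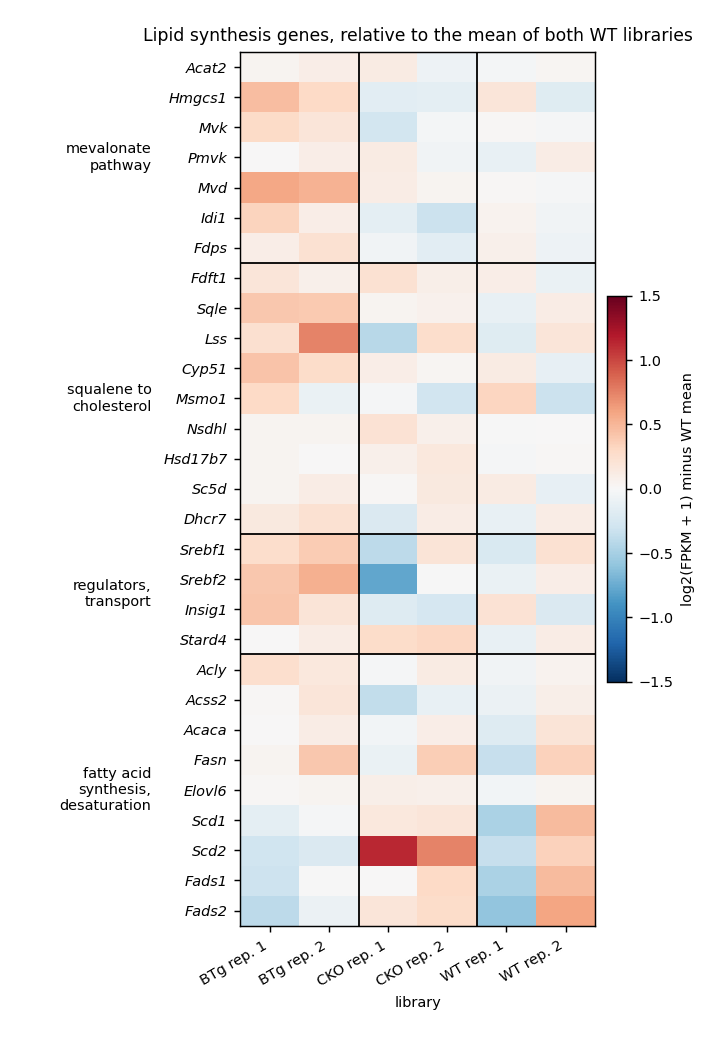
Each cell is the log2(FPKM + 1) value of a gene in a library minus the mean of the 2 WT libraries; rows are the 29 genes by role, columns the libraries in the order BTg, CKO and WT. The mevalonate and squalene rows are mostly red in BTg, Scd2 is red in both CKO libraries, and the lowest rows differ in colour between the 2 WT libraries.

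The first steps of the mevalonate pathway join acetyl-CoA units. Acat2, the thiolase that makes acetoacetyl-CoA, had 1.97 and 2.09 FPKM in BTg, 2.14 and 1.74 FPKM in CKO, and 1.83 and 1.94 FPKM in WT, values that lie close together in all libraries. Hmgcs1 had 3.91 and 3.38 FPKM in BTg, 2.19 and 2.22 FPKM in CKO, and 3.04 and 2.14 FPKM in WT. Both BTg libraries were above all 4 others. Its BTg minus WT difference was 0.38 (SE 0.21; limma adjusted p = 1), and its BTg minus CKO difference was 0.53 (SE 0.21; limma adjusted p = 0.564). The CKO minus WT difference was -0.15 (SE 0.21; limma adjusted p = 1) and turned to 0.03 without WT replicate 1.

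The next enzymes phosphorylate mevalonate and decarboxylate it. Mvk, mevalonate kinase, had 2.01 and 1.81 FPKM in BTg, 1.05 and 1.42 FPKM in CKO, and 1.51 and 1.44 FPKM in WT, so the groups did not overlap in the order BTg, WT and CKO. Pmvk, which adds the second phosphate, had 1.73 and 1.90 FPKM in BTg, 1.95 and 1.63 FPKM in CKO, and 1.52 and 1.93 FPKM in WT, with every pair of groups overlapping. Mvd had 3.25 and 3.07 FPKM in BTg, 2.06 and 1.91 FPKM in CKO, and 1.88 and 1.80 FPKM in WT. This was the clearest separation of BTg from WT among the 29 genes by its unadjusted p. Its means were 3.16 ± 0.123 FPKM in BTg, 1.98 ± 0.104 FPKM in CKO and 1.84 ± 0.0541 FPKM in WT (SD, n = 2 each). The BTg minus WT difference was 0.55 (SE 0.18; limma adjusted p = 1), and the BTg minus CKO difference was 0.48 (SE 0.18; limma adjusted p = 0.538). Mvd overlaps a predicted gene, Gm20388, so reads in the overlap cannot be assigned to either by position.

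The pathway then makes its isoprenoid units. Idi1, isopentenyl diphosphate isomerase, had 4.81 and 3.95 FPKM in BTg, 3.16 and 2.69 FPKM in CKO, and 3.80 and 3.45 FPKM in WT. BTg was highest and CKO lowest, without overlap. Fdps, farnesyl diphosphate synthase, had 0.529 and 0.674 FPKM in BTg, 0.378 and 0.275 FPKM in CKO, and 0.501 and 0.352 FPKM in WT. The BTg libraries were again on top, at a level below the filter. As a group, the 7 mevalonate genes had a median log2 difference of 0.22 for BTg minus WT, of 0.39 for BTg minus CKO and of -0.10 for CKO minus WT.

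From squalene onward the pattern was mixed. Fdft1, squalene synthase, had 1.18 and 1.03 FPKM in BTg, 1.25 and 1.05 FPKM in CKO, and 1.06 and 0.793 FPKM in WT, and all groups overlapped. Sqle, squalene epoxidase, had 3.09 and 3.07 FPKM in BTg, 2.19 and 2.24 FPKM in CKO, and 1.88 and 2.34 FPKM in WT. The BTg libraries were nearly equal and above the other 4. The BTg minus WT difference was 0.40 (SE 0.19; limma adjusted p = 1), and the BTg minus CKO difference was 0.35 (SE 0.19; limma adjusted p = 0.648). CKO and WT overlapped, with a difference of 0.05 (SE 0.19; limma adjusted p = 1) that turned to -0.05 without WT replicate 1. Lss, lanosterol synthase, which closes the sterol rings, had 6.33 and 9.46 FPKM in BTg, 3.67 and 6.49 FPKM in CKO, and 4.49 and 6.05 FPKM in WT. The BTg libraries differed more from each other than the lower of them did from the WT libraries.

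Lanosterol is then demethylated. Cyp51, lanosterol demethylase, had 4.43 and 3.87 FPKM in BTg, 3.32 and 3.11 FPKM in CKO, and 3.40 and 2.70 FPKM in WT. BTg stood above the others and CKO and WT overlapped. Msmo1, methylsterol monooxygenase, had 4.63 and 3.27 FPKM in BTg, 3.52 and 2.73 FPKM in CKO, and 4.71 and 2.64 FPKM in WT. In each group replicate 1 was the higher library and the groups overlapped throughout. Nsdhl, a sterol dehydrogenase of the same steps, had 0.575 and 0.569 FPKM in BTg, 0.771 and 0.609 FPKM in CKO, and 0.523 and 0.527 FPKM in WT, below the filter and highest in CKO.

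The last steps separated the groups by narrow margins or not at all. Hsd17b7, a reductase of the demethylation steps, had 1.51 and 1.44 FPKM in BTg, 1.57 and 1.71 FPKM in CKO, and 1.40 and 1.47 FPKM in WT, with CKO above both others. Sc5d, lathosterol oxidase, had 3.90 and 4.16 FPKM in BTg, 3.81 and 4.28 FPKM in CKO, and 4.19 and 3.38 FPKM in WT, and all groups overlapped. Dhcr7, which reduces dehydrocholesterol to cholesterol, had 3.40 and 3.64 FPKM in BTg, 2.40 and 3.27 FPKM in CKO, and 2.67 and 3.28 FPKM in WT. Both BTg libraries exceeded the others by a narrow margin. The 9 genes from Fdft1 to Dhcr7 had a median log2 difference of 0.13 for BTg minus WT, of 0.25 for BTg minus CKO and of 0.06 for CKO minus WT.

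**Figure D2:**
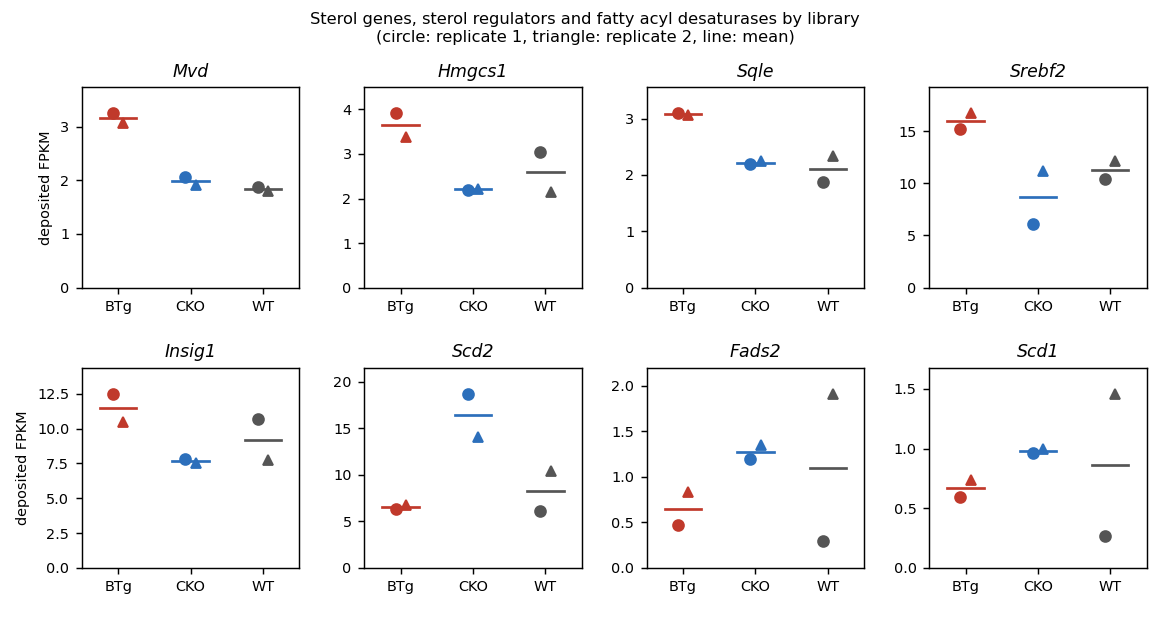
Deposited FPKM of 8 genes in each library (circle for replicate 1, triangle for replicate 2, line for the mean), with the groups in the order BTg, CKO and WT. Mvd, Hmgcs1, Sqle and Srebf2 are highest in both BTg libraries, Scd2 in both CKO libraries, and the WT libraries of Fads2 (0.289 and 1.91 FPKM) and Scd1 (0.265 and 1.46 FPKM) lie on either side of both other groups.

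Srebf2, Srebf1 and Insig1 had their highest means in BTg. Srebf2 had 15.2 and 16.7 FPKM in BTg, 6.11 and 11.2 FPKM in CKO, and 10.4 and 12.1 FPKM in WT. Both BTg libraries were above all others, and CKO replicate 1 was the lowest library. The BTg minus WT difference was 0.47 (SE 0.32; limma adjusted p = 1), and the BTg minus CKO difference was 0.86 (SE 0.32; limma adjusted p = 0.526). The CKO minus WT difference was -0.40 (SE 0.32; limma adjusted p = 1) and was -0.01 without CKO replicate 1, the library with the neutrophil transcripts. Without that library the BTg minus CKO difference of Srebf2 was 0.48 (limma adjusted p = 1). The part of those cells in the Srebf2 values was not tested.

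Srebf1, which encodes the SREBP-1 proteins that act chiefly on fatty acid genes, had 75.1 and 81.7 FPKM in BTg, 47.4 and 71.3 FPKM in CKO, and 53.1 and 73.2 FPKM in WT. BTg was higher in both libraries, while CKO and WT overlapped widely. The BTg minus WT difference was 0.33 (SE 0.34; limma adjusted p = 1), the BTg minus CKO difference 0.42 (SE 0.34; limma adjusted p = 0.73), and the CKO minus WT difference -0.10 (SE 0.34; limma adjusted p = 1). The last of these turned to 0.13 without WT replicate 2 and to 0.19 without CKO replicate 1.

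Insig1, which retains the SREBP proteins in the endoplasmic reticulum and is itself a target of SREBP, had 12.5 and 10.5 FPKM in BTg, 7.84 and 7.5 FPKM in CKO, and 10.7 and 7.71 FPKM in WT. BTg exceeded CKO in both libraries and overlapped WT. Its BTg minus CKO difference was 0.53 (SE 0.25; limma adjusted p = 0.607), its BTg minus WT difference 0.31 (SE 0.25; limma adjusted p = 1) and its CKO minus WT difference -0.22 (SE 0.25; limma adjusted p = 1). Stard4, a carrier of sterols between membranes, was highest in CKO. It had 4.15 and 4.52 FPKM in BTg, 5.19 and 5.34 FPKM in CKO, and 3.73 and 4.53 FPKM in WT, so both CKO libraries were on top and BTg and WT overlapped. The CKO minus WT difference was 0.29 (SE 0.20; limma adjusted p = 1).

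Of the genes that build fatty acids, Acaca and Fasn overlapped in all groups, while Acly and Acss2 each set 1 group apart by a narrow margin. Acly, which makes cytosolic acetyl-CoA from citrate, had 10.9 and 10.2 FPKM in BTg, 8.89 and 9.88 FPKM in CKO, and 8.64 and 9.39 FPKM in WT, with BTg narrowly highest. Acss2, which makes acetyl-CoA from acetate, had 1.80 and 2.12 FPKM in BTg, 1.13 and 1.56 FPKM in CKO, and 1.6 and 1.93 FPKM in WT, with CKO below both others. Acaca, acetyl-CoA carboxylase, had 0.964 and 1.12 FPKM in BTg, 0.914 and 1.11 FPKM in CKO, and 0.712 and 1.25 FPKM in WT. Its WT libraries spanned the other groups, and its differences were 0.06, 0.02 and 0.03 (SE 0.24 each) for BTg minus WT, BTg minus CKO and CKO minus WT, with limma adjusted p = 1, 0.977 and 1. Fasn, fatty acid synthase, had 177 and 227 FPKM in BTg, 160 and 222 FPKM in CKO, and 135 and 218 FPKM in WT. Replicate 2 was the higher library in each group and all groups overlapped, with differences of 0.23, 0.09 and 0.14 (SE 0.39 each) for BTg minus WT, BTg minus CKO and CKO minus WT and limma adjusted p = 1, 0.944 and 1. The signs of Acaca and Fasn turned in each comparison when single libraries were left out. Elovl6, an elongase of palmitate, had 0.181 and 0.208 FPKM in BTg, 0.245 and 0.231 FPKM in CKO, and 0.139 and 0.201 FPKM in WT, below the filter.

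The desaturases, which put double bonds into fatty acyl chains, stood apart from the sterol genes. Scd2, a stearoyl-CoA desaturase known chiefly from brain, had 6.30 and 6.76 FPKM in BTg, 18.7 and 14.1 FPKM in CKO, and 6.11 and 10.4 FPKM in WT. Both CKO libraries were above all others. The means were 6.53 ± 0.33 FPKM in BTg, 16.4 ± 3.2 FPKM in CKO and 8.24 ± 3.01 FPKM in WT (SD, n = 2 each). The BTg minus CKO difference was -1.20 (SE 0.31; limma adjusted p = 0.402), the smallest p of any of the 29 genes. The CKO minus WT difference was 0.94 (SE 0.31; limma adjusted p = 1), and the BTg minus WT difference was -0.26 (SE 0.31; limma adjusted p = 1), which turned to 0.08 without WT replicate 2. Without CKO replicate 1, the Scd2 difference was -1.01 for BTg minus CKO (limma adjusted p = 0.944) and 0.75 for CKO minus WT (limma adjusted p = 0.996).

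Scd1, the related desaturase of liver and fat, had 0.595 and 0.738 FPKM in BTg, 0.962 and 1.0 FPKM in CKO, and 0.265 and 1.46 FPKM in WT. Fads1 and Fads2 desaturate polyunsaturated acyl chains. Fads1 had 3.02 and 3.98 FPKM in BTg, 4.02 and 5.16 FPKM in CKO, and 2.60 and 5.96 FPKM in WT, and Fads2 had 0.471 and 0.827 FPKM in BTg, 1.19 and 1.35 FPKM in CKO, and 0.289 and 1.91 FPKM in WT. For all 3 genes both BTg libraries were below both CKO libraries, and WT replicate 1 was the lowest and WT replicate 2 the highest of the 6 libraries.

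Marker lists of other and of dividing cells also differed between libraries. The erythroid list took 0.0117 and 0.02% of reads in BTg, 0.0416 and 0.0808% in CKO, and 0.00953 and 0.128% in WT. It ordered the 6 libraries exactly as Scd1, Fads1 and Fads2 did, from WT replicate 1 through BTg replicates 1 and 2 and CKO replicates 1 and 2 to WT replicate 2, and 1 of its 7 genes was at 0 in BTg replicate 2, CKO replicate 1 and WT replicate 1. Proliferation markers took 0.0917 and 0.11% in BTg, 0.343 and 0.226% in CKO, and 0.0873 and 0.261% in WT. They had the same 3 lowest libraries as these genes and as Scd2, and, like Scd2, were highest in CKO replicate 1. Plasma cell markers took 0.0821 and 0.0501% in BTg, 0.571 and 0.144% in CKO, and 0.099 and 0.0922% in WT. T cell markers took 0.501 and 0.446% in BTg, 0.252 and 0.394% in CKO, and 0.464 and 0.36% in WT. The B cell list took 0.00326 and 0.004% in BTg, 0.0118 and 0.00812% in CKO, and 0.00371 and 0.0076% in WT, and the monocyte and macrophage list 0.00218 and 0.00253% in BTg, 0.103 and 0.0149% in CKO, and 0.00247 and 0.00967% in WT. None of the 18 proliferation, 8 neutrophil, 6 plasma cell, 8 B cell or 8 T cell genes was at 0 in any library. The part of dividing or other cells in the values of the desaturases was not tested. The shares of the sterol genes were ordered differently: the mevalonate genes took 0.0188 and 0.0177% of reads in BTg, 0.0137 and 0.0127% in CKO, and 0.0147 and 0.0136% in WT. The BTg libraries, which were among the 3 lowest in proliferation markers, were the highest there. The T cell list was highest in BTg replicate 1 at 0.501%, followed by WT replicate 1 at 0.464%, and lowest in CKO replicate 1 at 0.252%. The part of dividing or other cells in the values of the sterol genes was not tested either.

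**Figure D3:**
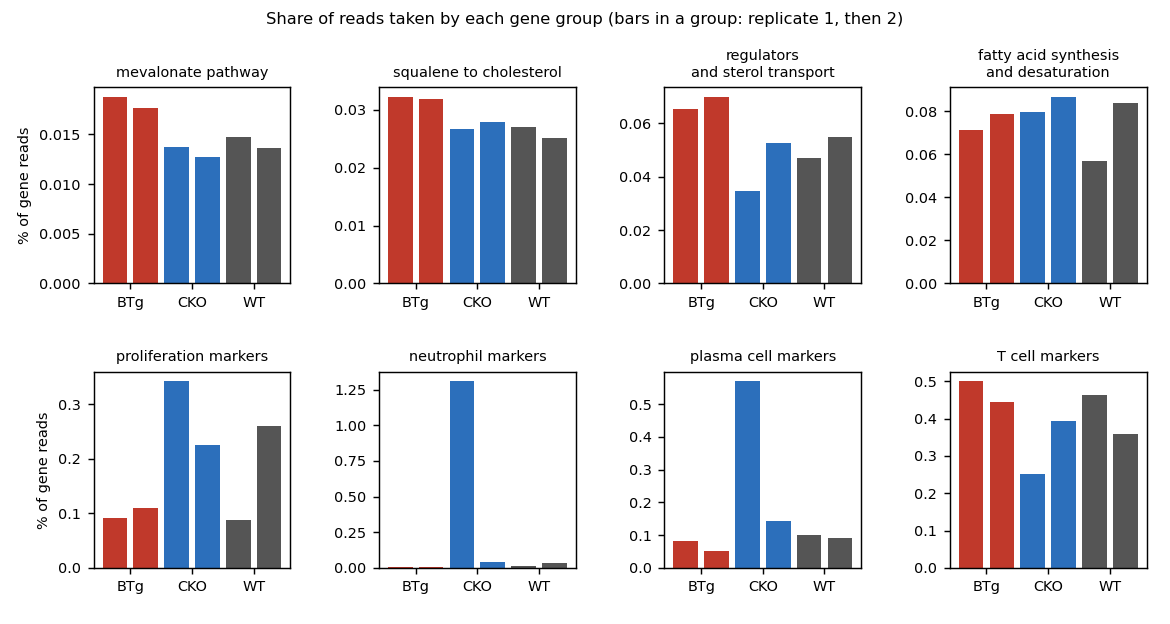
Percent of gene reads taken by the 4 groups of lipid genes (upper panels) and by 4 marker lists (lower panels) in each library, with bars for replicate 1 and then 2 in the order BTg, CKO and WT. The mevalonate and squalene panels are highest in BTg, and neutrophil markers reach 1.31% in CKO replicate 1 alone.

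Against CKO, the means of the set went both ways, as they did over all genes. Of the 29 genes, 19 had a higher and 10 a lower mean in BTg. Of all 10798 genes tested, 6053 had a higher and 4745 a lower mean. The median log2 difference was 0.16 for the set against 0.06 over all genes tested. Without BTg replicate 1 these medians were 0.11 against 0.09, without CKO replicate 2 they were 0.22 against 0.17, and without CKO replicate 1 they were 0.10 against -0.05. Both BTg libraries exceeded both CKO libraries in 13 genes and were below them in 8. Over the 26 genes tested these counts were 12 and 6, beside 17.8% and 21.8% of all genes tested. The 13 were Hmgcs1, Mvk, Mvd, Idi1, Fdps, Sqle, Cyp51, Dhcr7, Srebf1, Srebf2, Insig1, Acly and Acss2, and the 8 were Nsdhl, Hsd17b7, Stard4, Elovl6, Scd1, Scd2, Fads1 and Fads2. At unadjusted p under 0.05 there were 3 higher genes, Srebf2, Mvd and Hmgcs1, and 1 lower, Scd2, beside 2.78% and 6.01% of all genes tested. The fatty acid genes had a median difference of -0.05 and the mevalonate genes one of 0.39.

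Between CKO and WT the sterol genes had no common direction. Their median was 0.03 over the 16 genes, with 9 higher and 7 lower means, against -0.03 over all genes tested. Of the 29 genes, 6 were higher in both CKO libraries than in both WT libraries, namely Mvd, Nsdhl, Hsd17b7, Stard4, Elovl6 and Scd2. In 3 both were lower, namely Mvk, Idi1 and Acss2. Over the 26 genes tested these counts were 4 and 3, beside 11.5% and 8.96% of all genes tested. Scd2 alone had an unadjusted p under 0.05. The fatty acid genes had 8 higher means and 1 lower, a median of 0.14, which was -0.21 with 2 higher and 7 lower without WT replicate 1 and 0.48 without WT replicate 2. The same library moved BTg against WT: the fatty acid median of 0.03 was -0.14 without WT replicate 1 and 0.26 without WT replicate 2. BTg and CKO were set against the same WT libraries, and these comparisons are not independent.

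**Figure D4:**
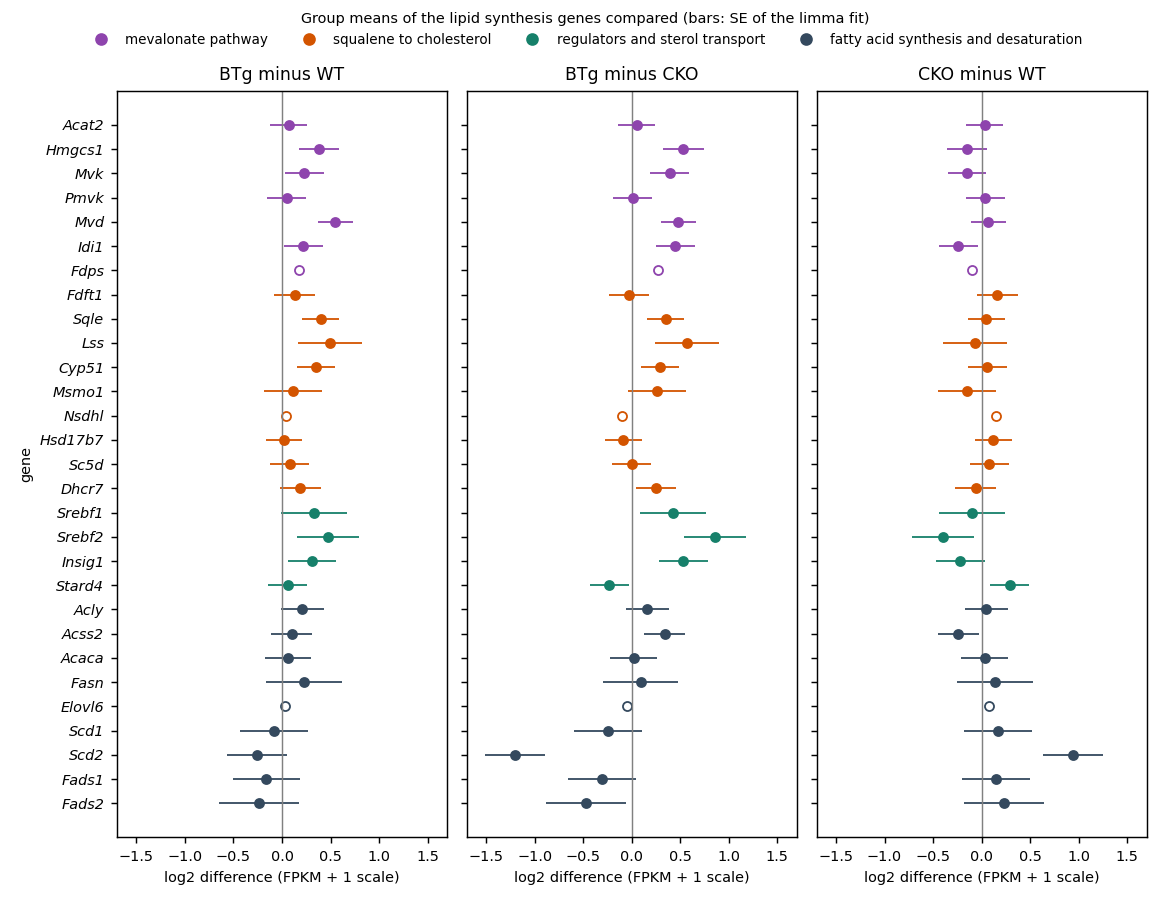
Differences of group means on the log2(FPKM + 1) scale with the standard error of the limma fit (bars), for BTg minus WT, BTg minus CKO and CKO minus WT; colours are roles and open circles mark Fdps, Nsdhl and Elovl6, which were not tested. The mevalonate points lie at or right of 0 in both BTg panels, and Scd2 is at -1.20 for BTg minus CKO and 0.94 for CKO minus WT.

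Levels can be compared between genes only per length, and the deposited FPKM divide by genomic span, so levels between genes are given as reads per kilobase of exon, scaled to the reads of the library. On that scale Srebf2 was at 58.5 in BTg, 31.7 in CKO and 41.4 in WT, and Acly at 54.7 in BTg, 48.5 in CKO and 46.6 in WT. They were followed in WT by Srebf1 at 27.7 in BTg, 21 in CKO and 22.3 in WT, by Fasn at 20.3 in BTg, 19.2 in CKO and 17.7 in WT, and by Scd2 at 13.8 in BTg, 34.7 in CKO and 17.4 in WT. The order of these 3 in WT is not separated by the spread between libraries. In BTg, Mvd at 16.7 stood above Scd2, and in CKO, Mvd at 10.5 stood below it. The lowest were Fdps, at 0.85 in BTg, 0.461 in CKO and 0.603 in WT, and Scd1, at 1.19 in BTg, 1.75 in CKO and 1.54 in WT. Fasn and Srebf1, the highest genes in deposited FPKM, are not the highest on this scale.

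**Figure D5:**
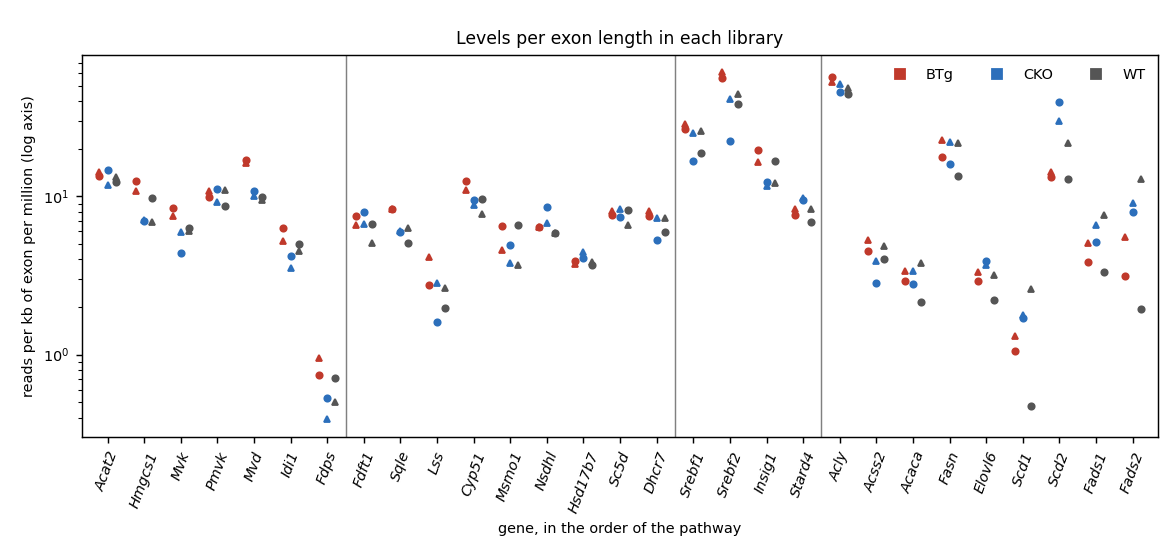
Reads per kilobase of exon, scaled to library reads (log axis), for each gene in pathway order, with circles for replicate 1 and triangles for replicate 2 of BTg, CKO and WT. Srebf2 and Acly are the highest genes in BTg and WT, and Fdps is the lowest gene in every group mean.

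Some of the genes share sequence with others, and their reads may have been split or lost. Of the 50-base words in the exons, 39.1% of Acat2 occurred elsewhere, chiefly in Acat3, 30.4% of Acaca, 26.5% of Fdft1, 26.2% of Fdps, 25.3% of Idi1 and 11.6% of Hmgcs1, chiefly in predicted genes or, for Fdft1, in the overlapping Ctsb. For Scd2 the share was 3.97%, so Scd1 and Scd2 can mostly be told apart. The sources used here do not give a strand setting, so reads where genes overlap cannot be assigned by position. Such pairs are Cyp51 with Akap9, Srebf1 with Rai1 and Lss with 4930483K19Rik. The words shared within these pairs were 2.63% of Cyp51, 1.03% of Srebf1 and 1.85% of Lss.

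Other genes of sterol and fatty acid supply were taken as lists, and 0 of their genes passed limma's test in any comparison. Of 17 further genes of lipid synthesis and SREBP processing, 13 had a higher mean in BTg than in WT. Their median log2 difference of 0.03 was close to the 0.02 over all genes tested, of which 5884 of 10798 had a higher mean. Ebp, a sterol isomerase, had 7.29 and 6.87 FPKM in BTg, 13.6 and 8.45 FPKM in CKO, and 7.30 and 8.05 FPKM in WT, with CKO replicate 1 far above the rest.

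Lbr, a sterol reductase and lamin receptor, had 52.3 and 50.9 FPKM in BTg, 32.8 and 41.6 FPKM in CKO, and 39.0 and 44.1 FPKM in WT, with BTg on top. Elovl5, an elongase of polyunsaturated chains, had 3.55 and 3.43 FPKM in BTg, 2.93 and 2.88 FPKM in CKO, and 2.75 and 2.62 FPKM in WT. Its BTg libraries were above the others as well.

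Among 11 genes of cholesterol uptake, efflux and storage, 9 had a higher mean in BTg than in WT, with a median of 0.10 against 0.02 over all genes tested. Npc2, which carries cholesterol out of lysosomes, had 66.3 and 54.7 FPKM in BTg, 40.5 and 38.0 FPKM in CKO, and 72.0 and 49.4 FPKM in WT, lowest in CKO. Npc1, its membrane partner, had 11.0 and 13.1 FPKM in BTg, 5.37 and 10.2 FPKM in CKO, and 8.38 and 9.99 FPKM in WT. Soat1, which esterifies cholesterol for storage, had 0.936 and 1.53 FPKM in BTg, 2.09 and 1.76 FPKM in CKO, and 0.885 and 1.19 FPKM in WT, highest in CKO.

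Fatty acid oxidation is the opposite route. Of 15 genes, 12 had a lower mean in BTg than in WT and 11 a lower mean than in CKO, beside 4913 and 4745 of all 10798 genes tested. The median log2 differences were -0.14 and -0.25, against 0.02 and 0.06 over all genes tested. In Cpt1a, Cpt2, Slc25a20 and Acadl, the BTg mean lay above WT replicate 1 and below WT replicate 2, and in Hadhb the reverse. The direction against WT in these genes thus depended on a single WT library. Both BTg libraries were below both CKO libraries in 8 of the 15 and above them in 0. Over the 14 of them tested these counts were 7 and 0, beside 21.8% and 17.8% of all genes tested. Both BTg libraries were below both WT libraries in 4 of the 15 and above them in 0. Over the 14 tested those counts were 3 and 0, beside 10.4% and 14.7% of all genes tested. The BTg libraries also had the smaller shares of proliferation markers, 0.0917 and 0.11% against 0.343 and 0.226% in CKO, and the neutrophil, plasma cell and monocyte lists were highest in CKO replicate 1. The part of other or dividing cells in these values was not tested. Acadl, an acyl-CoA dehydrogenase, had 0.568 and 0.744 FPKM in BTg, 1.93 and 1.58 FPKM in CKO, and 0.554 and 1.54 FPKM in WT. Its BTg minus CKO difference was -0.73 (SE 0.29; limma adjusted p = 0.562), and its BTg minus WT difference of -0.27 turned to 0.09 without WT replicate 2. Like Scd1, Fads1 and Fads2, it was lowest in WT replicate 1. Etfa, a subunit of the flavoprotein that accepts electrons from these enzymes, had 2.5 and 2.08 FPKM in BTg, 3.5 and 2.70 FPKM in CKO, and 2.66 and 2.86 FPKM in WT. Acadm, the medium-chain dehydrogenase, had 7.79 and 8.93 FPKM in BTg, 7.46 and 7.80 FPKM in CKO, and 8.97 and 8.65 FPKM in WT. Its mean was lowest in CKO, whose libraries overlapped those of BTg.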

How the data were processed

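RNA was extracted with TRIzol from sorted CD4 T cells, and libraries were made from 3 ug of RNA using NEBNext Ultra reagents, per the labels' protocols. Trimmomatic 0.38, HISAT2 2.1.0, featureCounts 1.6.0 and the GRCm38 build are named in the submitters' processing notes; the sources used here give no annotation release or strand setting. FPKM values, 1 column per library, were deposited by the authors. Identifiers were matched to GENCODE M21, and all 28914 matched. When a gene's length was its transcripts' median genomic span, introns included, 100.0% of values above 0 were whole reads within 0.01, against 21.2 to 22.91% with exon length. The median ratio of span to exon length was 3.068 over 16778 protein-coding genes, so the deposited levels are not comparable between genes. The ratio of a gene between libraries is not touched.

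Values were transformed to log2(FPKM + 1), a scale that understates changes of low genes. One limma fit (R 4.3.3, limma 3.58.1, eBayes with a trend, no block) held all 6 libraries and 10798 genes that reached 1 FPKM in 2 or more libraries; the threshold was a Benjamini-Hochberg adjusted p of 0.05 over all of them. With 2 libraries against 2, an exact permutation test cannot give a two-sided p below 0.333, and none is given. Groups came from sample titles. The 29 genes, the other lists and the tests were chosen with earlier results of these data known. Statistics are printed for the 3 genes of the set with the smallest p in each comparison, for Srebf1, Srebf2, Insig1, Hmgcs1, Sqle, Fasn, Scd2 and Acaca, and for some genes with the smallest p of each further list, up to 2 per list and comparison. Some genes that this rule takes are not reported here. There were 17 alternatives, among them limma voom on the recovered reads of 15927 genes with at least 10 reads in at least 2 libraries. Reads carry no molecular identifiers. Figures were drawn with matplotlib 3.10.9.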

Additional observations from a re-analysis of the deposited data

How the results depend on the processing

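The number of the 29 genes called was 0 in all 3 comparisons under all 17 alternatives. The number of all genes called was less steady. With low genes left in it was 46 for BTg against WT, 81 for BTg against CKO and 65 for CKO against WT, and limma voom on recovered reads gave 4, 7 and 0 in that order. A filter at 0.2 FPKM, quantile normalization and a fit of only the 2 groups compared each gave 0 for both BTg comparisons, and exon length gave 9 for BTg against CKO. Leaving out 1 library gave 0 for BTg against WT, 0 to 255 for BTg against CKO and 0 to 81 for CKO against WT. The highest of these, 255 and 81, came without CKO replicate 2, which leaves CKO replicate 1, the library with neutrophil transcripts, alone in its group and assumed to vary like the others. The cause of these shifts, with and without single libraries, was not tested.

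The median difference of the 29 genes for BTg minus WT, 0.13 as reported, was 0.23 with a pseudocount of 0.1, 0.21 with 0.25, 0.18 with quantile normalization, 0.23 with limma voom and 0.21 with exon length, and 0.10 to 0.20 without single libraries. For BTg minus CKO, 0.16 as reported, it was 0.24 with quantile normalization and 0.10 to 0.22 without single libraries. For CKO minus WT, 0.05 as reported, it was -0.03 to 0.11 without single libraries.

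Of the genes taken by the rule for printed statistics, these turned sign when libraries were left out. Acaca ranged from -0.14 to 0.25 for BTg minus WT, -0.05 to 0.09 for BTg minus CKO and -0.16 to 0.23 for CKO minus WT, and Fasn from -0.12 to 0.57, -0.14 to 0.32 and -0.21 to 0.48 in that order. Fasn was also -0.18 for CKO minus WT with quantile normalization. For BTg minus WT, Scd2 ranged from -0.60 to 0.08 and Acadl from -0.62 to 0.09. For CKO minus WT, Hmgcs1 ranged from -0.33 to 0.03, Sqle from -0.05 to 0.16 and Srebf1 from -0.39 to 0.19. In the other 748 results for genes taken by that rule the direction and the side of the threshold were as reported. Genes of the set outside the rule turned as well. For CKO minus WT, Acat2, Pmvk, Acly, Scd1, Fads1 and Fads2, among others, turned lower without WT replicate 1. For BTg minus WT, Pmvk, Stard4 and Elovl6 turned lower without that library. Scd1, Fads1 and Fads2 turned higher there without WT replicate 2.

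The labels do not say that a replicate number marks a shared animal or day, and the number of the second BTg library rests on its column name, so the libraries were not taken as paired. Libraries of the same number had deviations that correlated at 0.47 for BTg and WT, 0.46 for BTg and CKO, and 0.17 for CKO and WT. With a replicate block, 0 of the 29 genes and 0 of all genes were called in any comparison. With 2 libraries a group the precision is low. The differences of Mvd for BTg minus WT and of Scd2 for BTg minus CKO were several times their standard errors and did not pass. They had the smallest p of the set in those comparisons, and whether they reflect a true difference was not tested.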
